A study of Mus musculus with 24 samples.

Results

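The visual cortex of mice that received no drug was compared between 6 mice placed in light (light group) and 6 mice kept in the dark (dark group), which are 12 of the 24 mice sequenced. Their libraries were chosen by the vehicle injection (PBS, 0 mg/kg psilocybin) and by the light exposure that heads each column of the study's supplementary count table, which gives libraries 13 to 18 as light and 1 to 6 as dark. The sample labels give the opposite exposure for all 12 libraries with the same drug. If the labels hold, every direction given here turns. The animals were male C57BL/6J mice of 8 to 10 weeks on a reversed light cycle, injected with PBS in their dark phase and killed after 2.5 h in light or in the dark, with 1 library per mouse. The other 12 mice received 5 mg/kg psilocybin, 6 in light and 6 in the dark, and enter here only in the shared estimate of spread and in 1 comparison at the end. The measured values are read counts per gene from polyadenylated RNA of whole dissected tissue, so fewer cells of a type and less RNA per cell cannot be told apart.

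Sight drives gene expression in the visual cortex through neuronal firing. Calcium entry and kinase signalling switch on immediate early genes within minutes, through factors such as CREB and SRF that are already bound to DNA. Some of these genes encode transcription factors (Fos, Egr and Nr4a families, Npas4) and some act directly at synapses (Arc, Homer1). A later wave encodes secreted and synaptic proteins such as Bdnf and Nptx2. Exposure of dark-adapted rodents to light is a common way to follow this response.

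Some libraries stood apart from the rest before any comparison of groups. Total counts ran from 15086279 to 17367802 in dark mice and from 15410035 to 17906994 in light mice, and mitochondrial transcripts made up 3.23% to 3.90% and 3.02% to 4.59% of them. Within each group, all 15 pairs of libraries differed by more than sampling noise (chi-square divided by its degrees of freedom, 5.11 or more). Transcripts that define the cerebellum were high in 3 libraries. Cbln3, a gene of cerebellar granule cells, had 6870 normalized counts in dark mouse 1, 16190 in dark mouse 6 and 3633 in light mouse 18, and between 4.26 and 217.9 in the other 9 mice. Here each normalized count is a count brought to 16058300, the mean of the effective library sizes. Dark mice also spread more than light mice, with a median SD over genes of 0.22 against 0.13 on the log2 scale.

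The labelled tissue was checked against markers of cortical excitatory neurons. Slc17a7, the vesicular glutamate transporter of cortex, was abundant in every mouse, from 11160 to 29870 normalized counts in dark and from 23930 to 30890 in light mice. Emx1, a homeobox gene of the dorsal forebrain, ranged from 56.4 to 315.1 in dark and from 363.8 to 636.0 in light mice, without overlap. Fibcd1, a marker of the hippocampal CA1 field, went the other way, from 321.7 to 4785 in dark mice (median 1878) and from 127.9 to 305.5 in light mice (median 164.2). Emx1 and Fibcd1 thus separated the groups by light exposure in these libraries, while Slc17a7 overlapped. The part of such markers in the results was not tested.

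Of the 14464 genes tested with edgeR's quasi-likelihood test, 31.9% were called at an adjusted p-value under 0.05, 15.4% higher and 16.5% lower in light. Most of the changes were small. The median absolute log2 fold change of the called genes was 0.38, and 2871 of the 4611 changed by less than 0.5. A change of at least 2 on the log2 scale was seen in 55 genes that rose and 112 that fell. Among long noncoding RNAs, 114 of 635 rose and 52 fell, while among protein-coding genes 2072 of 13550 rose and 2318 fell.

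Promoters are shown for 4 genes that rose in light and hold elements of the activity response, chosen after their values were seen. Each sequence is the 250 bases before a transcription start in RefSeq on build GRCm38.p6, 5′ to 3′ on the strand of the gene. Capitals mark the cyclic AMP response element TGACGTCA, which CREB binds, its core TGACG or CGTCA, and, in Egr2, the CArG box that SRF binds. RefSeq lists 1 start for Npas4, Nr4a1 and Arl4d and 5 for Egr2, of which 1 is shown. The windows lie at chr19:4989972-4990221 on the minus strand for Npas4, and on the plus strand at chr15:101266596-101266845 for Nr4a1, chr11:101665291-101665540 for Arl4d and chr10:67537620-67537869 for Egr2.
Npas4: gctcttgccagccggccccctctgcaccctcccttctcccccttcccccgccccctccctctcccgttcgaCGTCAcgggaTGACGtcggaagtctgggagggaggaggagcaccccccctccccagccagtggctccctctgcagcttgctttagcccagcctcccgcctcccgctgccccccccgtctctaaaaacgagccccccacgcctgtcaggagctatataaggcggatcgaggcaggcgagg
Nr4a1: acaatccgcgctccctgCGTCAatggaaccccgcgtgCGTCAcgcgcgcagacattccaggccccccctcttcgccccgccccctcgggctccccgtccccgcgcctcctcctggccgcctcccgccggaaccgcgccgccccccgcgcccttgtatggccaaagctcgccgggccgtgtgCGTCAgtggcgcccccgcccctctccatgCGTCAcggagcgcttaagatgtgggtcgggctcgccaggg
Arl4d: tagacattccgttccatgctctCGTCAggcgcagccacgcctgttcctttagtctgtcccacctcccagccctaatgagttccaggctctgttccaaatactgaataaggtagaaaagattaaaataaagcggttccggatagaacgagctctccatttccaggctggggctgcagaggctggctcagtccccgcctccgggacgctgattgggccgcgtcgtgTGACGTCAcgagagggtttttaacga
Egr2: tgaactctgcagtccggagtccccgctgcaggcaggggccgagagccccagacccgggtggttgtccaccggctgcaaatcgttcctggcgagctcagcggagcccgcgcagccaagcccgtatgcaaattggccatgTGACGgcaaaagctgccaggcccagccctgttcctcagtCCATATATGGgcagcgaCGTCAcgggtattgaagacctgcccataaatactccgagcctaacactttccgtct

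The same elements were counted on both strands in all 32851 windows of this length, which cover 27025 genes. Of the 28 listed transcription factor and effector genes called higher in light, 23 have a window and together 33 windows. Egr1, Egr3, Ier2, Arc and Trib1 have none. The core TGACG or CGTCA was in 69.7% of the 33 windows and in 17.8% of all windows. The full element, which contains the core on each strand, was in 4 of the 33 windows (12.1%) and in 1.55% of all. The CArG box was also in 4 of the 33 windows (12.1%, all of Egr2) and in 1.47% of all. These shares are a description of the letters only.

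Transcription factor genes of the activity response were higher in light. Of the 22 listed, 14 rose and 1 fell, against 15.4% and 16.5% of all genes tested. Their median log2 fold change was 0.86, against −0.01 over all genes tested. In 9 of them every light mouse lay above every dark mouse, as in 5.59% of all genes tested. Arc, Npas4 and Egr1 and their neighbours in this response are plotted by mouse.

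Npas4, a factor gene that responds to neuronal calcium entry (chromosome 19 of GRCm39, 5034382 to 5040344, minus strand), had 36.7, 144.7, 101.4, 144.3, 113.4 and 48.4 normalized counts in dark mice 1 to 6. In light mice 13 to 18 it had 567.4, 697.1, 436.4, 568.2, 351.2 and 411.0. The groups did not overlap, and the log2 fold change was 2.37 (standard error, SE, 0.29, adjusted p = 5.68e-06). Egr1, a zinc finger factor gene, ran from 902.6 to 3405 in dark mice (median 2285) and from 6456 to 10490 in light mice (median 8471). Its lowest values were again in dark mice 1 and 6, and its log2 fold change was 1.88 (standard error 0.23, adjusted p = 5.01e-06).

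Egr3 and Egr2 encode close relatives of Egr1. Egr3 had a median of 2475 in dark (587.7 to 4086) and 7967 in light mice (4818 to 9643), with no overlap and a log2 fold change of 1.81 (SE 0.33). Egr2 had a median of 71.1 (10.1 to 154.9) and 281.6 (135.3 to 459.5), and its groups overlapped. Nr4a1, an orphan nuclear receptor gene, had medians of 783.1 (280.9 to 1018) and 2402 (1309 to 4193), a log2 fold change of 1.87 (SE 0.33) without overlap. Fos and Junb, whose proteins pair in the AP-1 complex, rose by 1.26 (standard error 0.23) and 1.03 (0.25) on the log2 scale, and Ier5 by 1.83 (0.23).

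Jun was the listed factor gene that fell. It ran from 1394 to 2468 in dark mice (median 1895) and from 807.6 to 1375 in light mice (median 1060). Every dark mouse lay above every light mouse, as in 4.41% of all genes tested, and the log2 fold change was −0.85 (standard error 0.15, adjusted p = 0.000202). Some relatives were not called. Fosl2 had a log2 fold change of −0.41 (adjusted p = 0.259), Nr4a2 of −0.70 (adjusted p = 0.100) and Nr4a3 of −0.40 (adjusted p = 0.194). Fosl2 and Nr4a3 were lowest among dark mice in 1 and 6, whereas Nr4a2 was highest in dark mouse 3 (3577) and next in dark mouse 6 (2085). Without dark mice 1 and 6 all 3 were called lower in light (−0.74, −0.89 and −0.67).

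**Figure D1:**
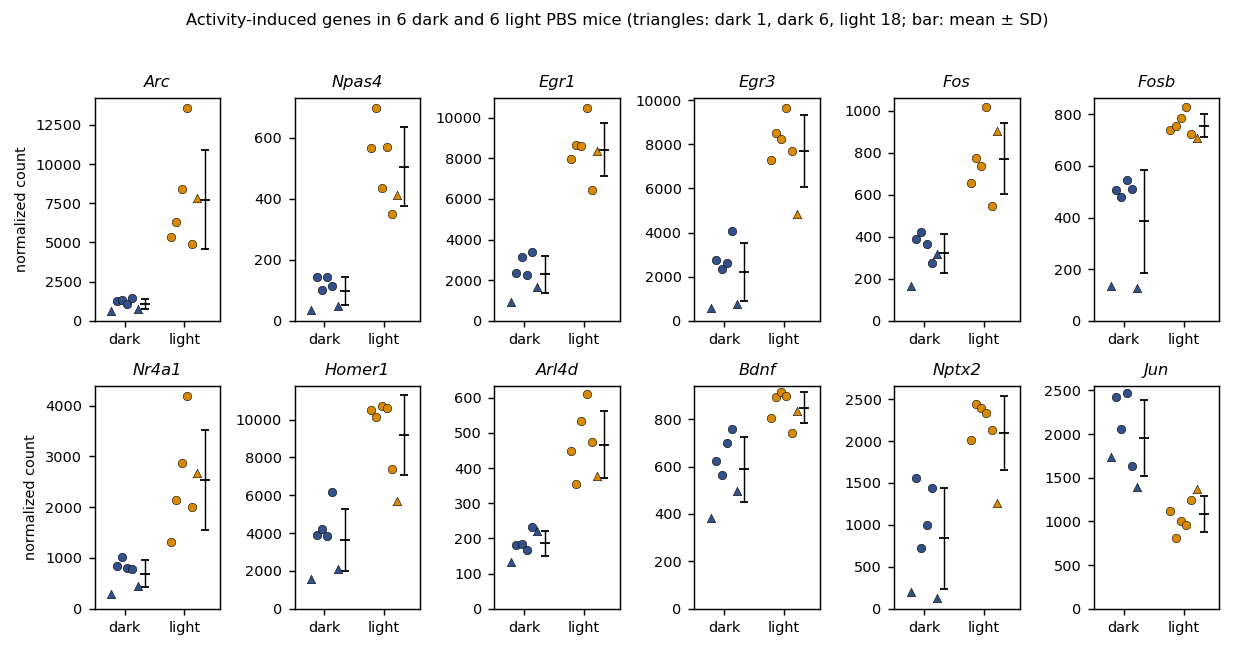
Normalized counts (y axis, linear from 0, a scale for each gene) of 12 activity-induced genes in the 6 dark and 6 light PBS mice (x axis). Each point is 1 mouse, triangles are the 3 libraries with cerebellar transcripts (dark 1, dark 6 and light 18), and bars are the mean ± SD (n = 6 per group). Arc, Npas4, Egr1, Egr3, Fos, Fosb, Nr4a1 and Arl4d separate the groups upward and Jun downward, while Homer1, Bdnf and Nptx2 overlap.

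Early effector genes rose as well, 14 of 23 against 15.4% of all genes tested. None was called lower, and the median log2 fold change was 0.39. Arc, which remodels synapses and forms capsid-like particles (chromosome 15, 74540932 to 74544419, minus strand), had 617.3, 1285, 1327, 1085, 1454 and 767.6 normalized counts in dark mice 1 to 6. The light mice had 5327, 6279, 8423, 13570, 4915 and 7864. No dark mouse came near the lowest light mouse, and the gap between them was the widest among the genes named as higher in light. The log2 fold change was 2.83 (standard error 0.31, adjusted p = 1.57e-06). Homer1, a scaffold gene of the postsynaptic density, had medians of 3863 (1569 to 6185) and 10320 (5697 to 10710), with light mouse 18 and dark mouse 5 overlapping.

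Regulators of kinase and G protein signalling in this list differed among themselves. Rgs4, which shortens G protein signals, had medians of 4069 in dark and 9584 in light mice (log2 fold change 1.30, standard error 0.23). Dusp6 and Dusp14, phosphatases of the MAP kinase family, rose by 0.99 (standard error 0.21) and 1.29 (0.21), and Spry2, an inhibitor of growth factor signalling, by 0.67 (0.09). Arl4d, a small GTPase gene whose promoter is shown above, ran from 132.4 to 231.4 in dark and from 354.9 to 609.8 in light mice (log2 fold change 1.32, standard error 0.14, adjusted p = 1.38e-06). Rgs2, Dusp4, Dusp5 and Spry4, of the same families as those above, were not called (0.28, 0.04, −0.07 and −0.20). Plk2, which weakens active synapses, was not called (log2 fold change 0.39, adjusted p = 0.151), and neither was Sik1, an inhibitor of CREB coactivators (0.16, adjusted p = 0.659).

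Of 20 later and secreted-protein genes, 7 rose, against 15.4% of all genes tested. None was called lower and the median log2 fold change was 0.37. In none of them did the groups separate. Cbln2, a synapse organizer gene, ran from 149.9 to 459.8 in dark (median 267.2) and from 438.2 to 994.7 in light mice (median 820.7), a log2 fold change of 1.47 (SE 0.28). Nptx2, which gathers AMPA receptors, had medians of 862.2 (128.8 to 1554) and 2237 (1261 to 2444), and Crh, a stress neuropeptide gene also made by cortical interneurons, 81.5 (22.9 to 116.2) and 206.1 (115.6 to 231.3). Bdnf, the neurotrophin gene, rose by 0.53 (standard error 0.16, adjusted p = 0.0133), from a median of 595.2 (381.1 to 760.2) to 863.2 (742.7 to 912.9). Scg2, Igf1, Pcsk1 and Inhba were not called, with log2 fold changes of 0.31, 0.16, 0.33 and 0.66.

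Many calls of activity genes were lost when the level of hippocampal markers entered the model. With the mean level of the hippocampal marker list as a covariate, 3 of the 22 factor genes (Egr1, Npas4 and Ier5), 3 of the 23 effectors (Arc, Spry2 and Arl4d) and 0 of the 20 later genes were called higher by edgeR. That covariate differs between the groups, so it also takes up part of any difference between them. The fold changes fell less than the calls did in the factor and effector lists, with medians of 0.68 and 0.37, while that of the later genes fell to 0.07. With the cerebellar marker list as the covariate, 14, 11 and 6 members of the 3 lists were called higher. Over all genes the hippocampal covariate left 922 calls in place of 4611, and the cerebellar covariate gave 5264.

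Upper-layer markers of the cortex were higher in light. Of 11 genes of layers 2 to 4, 9 rose and 1 fell, against 15.4% and 16.5% of all genes tested. Their median log2 fold change was 1.02. Cux2, a homeobox gene of upper-layer neurons, ran from 610.6 to 1495 in dark and from 2109 to 2963 in light mice (log2 fold change 1.34, standard error 0.20, adjusted p = 2.58e-05). Rspo1, a Wnt enhancer gene of layer 4, had 5.48 to 59.9 in dark and 82.4 to 243.5 in light mice (2.99, standard error 0.45). Lamp5, Rorb and Stard8 rose by 1.87, 1.21 and 2.01. Calb1, a calcium buffer gene also of Purkinje and dentate cells, fell by 0.94 and had its highest value, 13540, in a dark mouse, and without dark mice 1 and 6 it was not called (−0.28, adjusted p = 0.499).

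Deep-layer markers did not move as a group. Of 9 layer 5 genes tested, 1 rose and 3 fell (median log2 fold change −0.01), and of 11 layer 6 genes 2 rose and 2 fell (median 0.00). The layer 6 counts were near the shares over all genes tested, 15.4% higher and 16.5% lower. Etv1, a factor gene of layer 5, fell by 1.00 (standard error 0.23), Crym, a thyroid hormone binding protein gene, by 1.59 (0.26), while Tbr1, a factor gene of layer 6, rose by 1.06 (0.31). Fezf2, which specifies subcortical projection neurons, and Tle4 were not called. Among 8 general excitatory genes 4 rose and none was called lower. Emx1 had a log2 fold change of 1.48, and Nrgn, a postsynaptic calmodulin binder, ran from 6261 to 22490 in dark and from 22610 to 41280 in light mice.

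GABA and interneuron markers fell more often than they rose, 9 lower and 2 higher of 18 (median log2 fold change −0.41). The shares over all genes tested were 16.5% lower and 15.4% higher. Gad2, which makes GABA, ran from 3236 to 4166 in dark and from 2659 to 3185 in light mice (−0.29, standard error 0.06, adjusted p = 0.000399). Gad1 and Slc32a1 were not called (−0.12 and −0.14). Nos1, of nitric oxide producing neurons (chromosome 5, 117918971 to 118096905, plus strand), had 2422 to 4442 in dark and 600.6 to 1264 in light mice, a log2 fold change of −2.04 (SE 0.22, adjusted p = 1.72e-06). Ndnf and Reln, of layer 1 interneurons, fell by 1.13 and 1.29. Vip and Cck rose by 1.11 and 0.64 without overlap, and Pvalb and Sst were not called. Nos1, Reln and Ndnf are also made outside the cortex, and the levels of other regions follow.

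**Figure D2:**
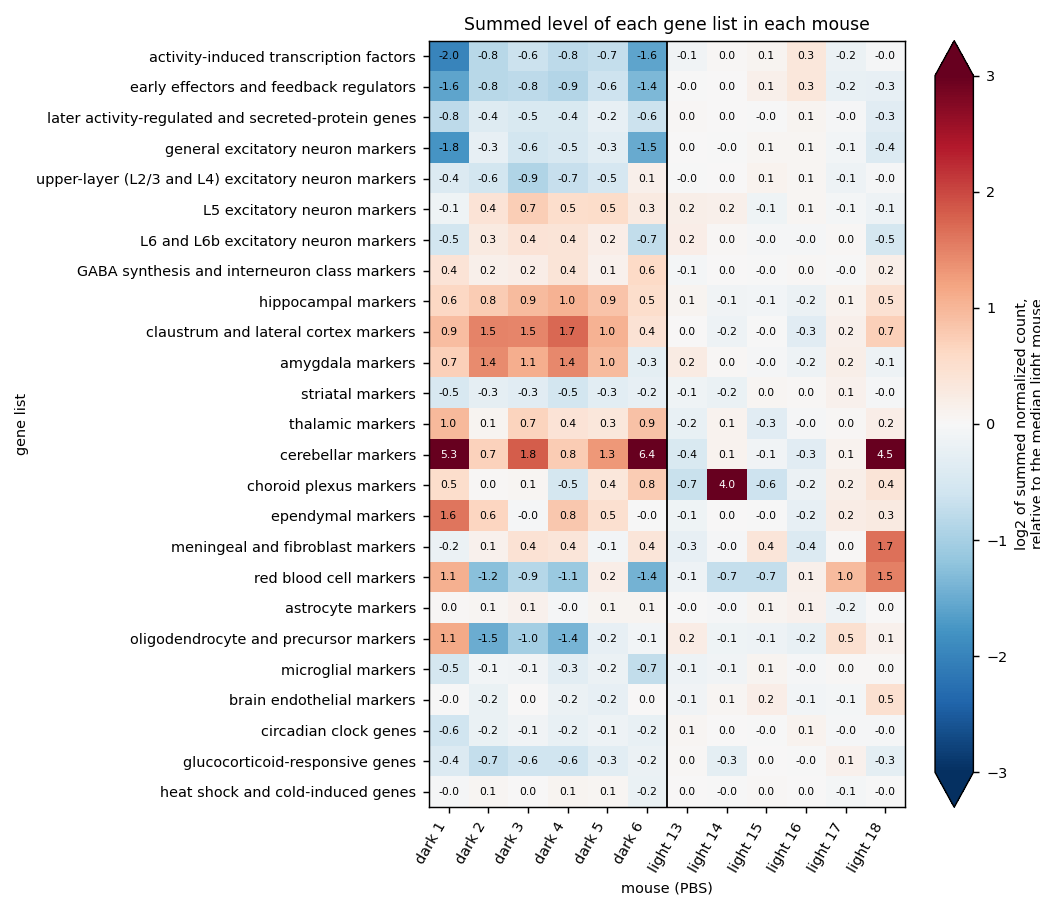
Summed normalized count of each gene list (rows) in each PBS mouse (columns), as the log2 difference from the median light mouse, with the colour scale ending at 3 in each direction and the value printed in each cell. The activity lists are below the median light mouse in all 6 dark mice and lowest in dark 1 and dark 6. In the later and secreted-protein list light 18 lies below dark 5. The hippocampal list is raised in all 6 dark mice, and cerebellar markers stand out in dark 1, dark 6 and light 18.

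Markers of other brain regions were summed over each list. For members called, the shares over all genes tested were 16.5% lower and 15.4% higher. The hippocampal list summed to 7355 to 10460 normalized counts in dark and 4532 to 7049 in light mice, with no overlap, and 4 of its 10 tested members fell and 1 rose. Claustrum and lateral cortex markers summed to 7523 to 18280 and 4415 to 9141, with 2 of 6 lower, among them Nnat by 1.87 (standard error 0.35). Amygdala markers summed to 2598 to 8618 and 2823 to 3720, with 6 of 7 lower and none higher. Rspo2, a Wnt enhancer gene, ran from 212.9 to 1236 in dark and from 144.6 to 287.4 in light mice, and Gpr101 and Dlk1 had log2 fold changes of −5.47 and −5.60. Prox1 of the dentate gyrus fell by 0.86 with all mice, yet without dark mice 1 and 6 it was not called (−0.11, adjusted p = 0.580).

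Other regional lists were close to absent, rested on few libraries or moved in few members. Of 8 hypothalamic genes only Otp passed the filter on low counts. It was called lower in light (log2 fold change −4.56, adjusted p = 0.00307), with 72.5 counts in dark mouse 1 and at most 4.32 in the other PBS mice, and the others were at or under 8.35 counts in every PBS mouse. None of the 9 cerebellar genes was called by edgeR, with a median log2 fold change of −2.17 and a summed level from 1165 to 59660 in dark and from 526.0 to 16760 in light mice. The member of highest level, Cbln3, had a log2 fold change of −2.68 (SE 1.70, adjusted p = 0.241). Striatal markers gave 2 higher and none lower of 10, among them Adora2a by 0.59, where 15.4% of all genes tested were higher. Their median log2 fold change was −0.09, and their sums, 3634 to 4487 in dark and 4599 to 5793 in light mice, did not overlap. Thalamic markers gave 1 higher and 1 lower of 8. Ntng1 fell by 1.71 (standard error 0.24) with no overlap, Ramp3 rose by 0.93 (0.20), and Tcf7l2, the defining factor gene, was not called (−0.13). Of 4 choroid plexus genes tested, Ttr alone was called, with 1980 counts in light mouse 14 and at most 53.3 in the other PBS mice.

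In the glial and endothelial lists, called genes changed by at most 0.78 on the log2 scale with all mice. Of 9 microglial genes 5 rose, by at most 0.51 on the log2 scale, and none fell. Trem2, a lipid receptor gene, ran from 104.2 to 162.9 in dark and from 175.9 to 210.1 in light mice (adjusted p = 0.000369), and C1qb, a complement gene, from 447.8 to 653.3 and from 697.6 to 872.8. Of 10 astrocyte genes 1 rose and 2 fell, near the 15.4% higher and 16.5% lower over all genes tested. Aldh1l1 rose by 0.39 (standard error 0.06), and Aqp4 and Gja1 fell by 0.78 and 0.36. None of the 12 oligodendrocyte genes was called. Their sum ran from 22250 to 139300 in dark mice, highest in dark mouse 1, and from 54100 to 87630 in light mice. Without dark mice 1 and 6, 10 of them were called higher and 2 lower, with Mbp, the myelin basic protein gene and member of highest level, at 1.07 (adjusted p = 0.00244) in place of 0.34 (adjusted p = 0.470).

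Endothelial markers gave 1 higher of 8, Ly6c1 by 0.53 (standard error 0.15), where 15.4% of all genes tested were called higher and 16.5% lower. Meningeal and fibroblast markers gave 1 lower of 9. That gene was Dcn, a proteoglycan gene also of hippocampal neurons, with 556.5 to 4811 in dark and 130.1 to 466.3 in light mice (−3.38, standard error 0.50), whereas the collagen genes Col1a1 and Col1a2 were at 0.09 and 0.10. Ependymal markers gave 1 lower of 3 tested, Ccdc153. None of the 5 red blood cell genes was called. The highest of them, Hbb-bs, had a log2 fold change of 0.72 (adjusted p = 0.433).

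**Figure D3:**
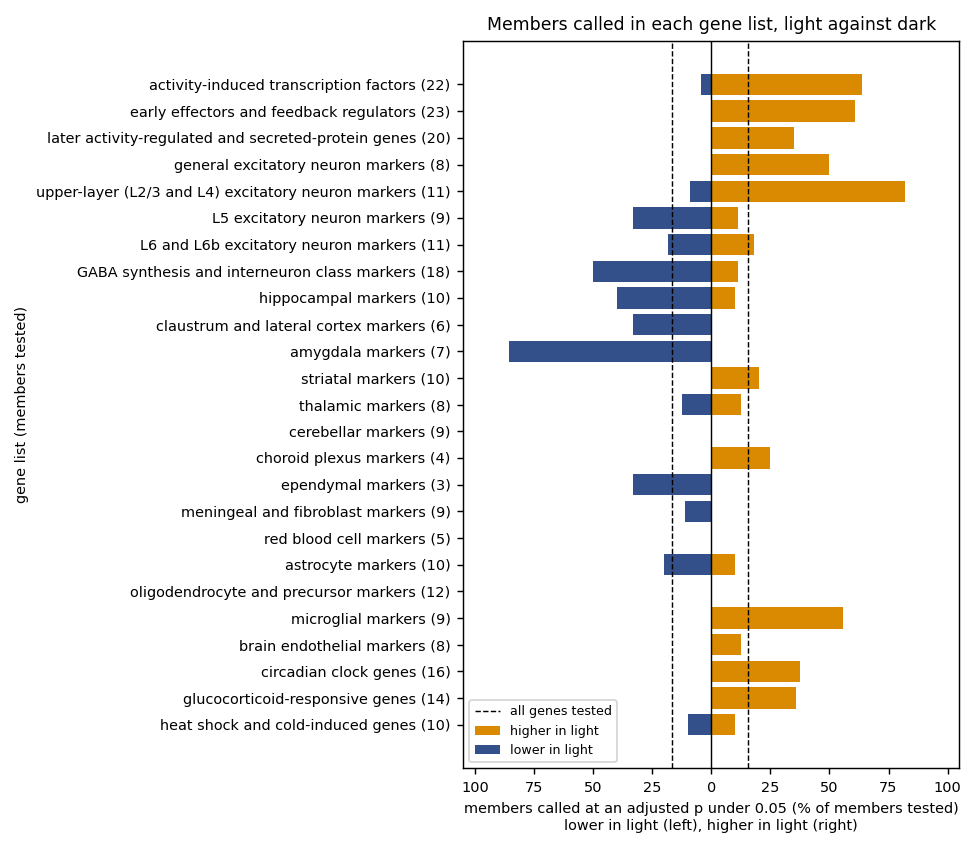
Share of each list's tested members (rows, number in brackets) called at an adjusted p-value under 0.05, higher in light to the right and lower in light to the left (x axis, percent). Dashed lines mark the shares over all genes tested, 15.4% higher and 16.5% lower. Among the lists plotted, upper-layer markers, activity-induced factors and early effectors reach farthest to the right and amygdala markers farthest to the left.

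Clock genes and genes that respond to glucocorticoids rose in part. Of 16 clock genes 6 rose and none fell, where 15.4% of all genes tested were called higher and 16.5% lower. Per3 ran from 280.4 to 346.2 in dark and from 450.2 to 577.8 in light mice, a log2 fold change of 0.70 (SE 0.07, adjusted p = 1.11e-06). Bhlhe40, a light-responsive repressor gene, rose by 0.67 (0.11), Bmal1 by 0.33 (0.07) and Hlf by 0.60 (0.12), while Per1, Dbp and Nr1d1 were not called (0.37, 0.05 and −0.08). Of 14 glucocorticoid-responsive genes 5 rose and none fell, Cdkn1a by 0.99 (0.16), Klf9 by 0.70 (0.12) and Fkbp5 by 0.39 (0.14, adjusted p = 0.0420), with Tsc22d3 and Zbtb16 not called. In the heat and cold list of 10, Rbm3, an RNA-binding protein gene induced by cooling, rose by 0.50 (0.16) and Hsp90aa1 fell by 0.18 (0.04). With the hippocampal marker covariate 1 clock gene and 0 glucocorticoid-responsive genes were called higher, and with only the 12 PBS mice 4 and 2.

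Gene families were taken by symbol. Cytosolic ribosomal protein genes rose in 47 of 81 cases and fell in 2, by a median of only 0.16 on the log2 scale, and their summed level overlapped between groups (111900 to 139000 in dark, 129100 to 151100 in light). With dark mice 1 and 6 and light mouse 18 left out, 18 were called higher and 1 lower. Over all genes tested, 15.4% were called higher and 16.5% lower. Nuclear genes of oxidative phosphorylation gave 8 higher and none lower of 75, a smaller share in each direction, with a median log2 fold change of 0.04. They gave 21 higher and none lower without dark mice 1 and 6, and 7 higher and 10 lower against those 2 mice alone. Proteasome genes gave 8 higher and 2 lower of 37, with a median log2 fold change of 0.05. None of the 10 mitochondrially encoded genes tested was called by edgeR.

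Serotonin receptor genes, the targets of psilocybin's active form, were measured here without drug. Of 12 tested, 6 were lower and 1 higher in light, with a median log2 fold change of −0.60 and sums of 2362 to 4783 in dark and 2032 to 2400 in light mice. Against dark mice 1 and 6 alone, 4 were lower and 4 higher, with a median of 0.03. Htr2c fell by 2.26 (standard error 0.36, adjusted p = 6.73e-05), from 1402 ± 710 to 292.8 ± 99.1 (SD, n = 6). Htr4 and Htr1a fell by 1.84 and 0.86, and Htr1f rose by 1.02. Htr2a, the receptor linked to psychedelic effects, had 419.8 ± 160.7 in dark and 421.4 ± 80.9 in light mice (SD, n = 6), a log2 fold change of 0.01 (SE 0.21). Voltage-gated potassium channel genes gave 2 higher and 5 lower of 20, against 15.4% higher and 16.5% lower over all genes tested.

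The genes with the widest gap between groups are named by rule, 12 in each direction. Those that rose were Arc, Mdfic2, Npas4, Robo3, Fst, Col5a1, Dkkl1, Etnk2, Egr1, Hkdc1, A830009L08Rik and Ccn4. Robo3, an axon guidance receptor gene (chromosome 9, 37326965 to 37344737, minus strand), had 5.37 to 97.6 in dark and 208.0 to 343.2 in light mice (log2 fold change 3.21, standard error 0.40). Fst, which encodes the activin binder follistatin, ran from 7.31 to 45.6 and from 95.5 to 141.3 (2.16, standard error 0.27), and Col5a1, a collagen gene, from 114.5 to 258.4 and from 520.2 to 696.2 (1.64, standard error 0.17). Etnk2, an ethanolamine kinase gene, had the smallest p of these, with 37.5 to 88.3 in dark and 172.6 to 270.2 in light mice (2.11, standard error 0.18, adjusted p = 2.02e-07). Pdyn, which encodes the dynorphin precursor, was among the largest changes at 2.57 (standard error 0.29), with 26.5 to 184.0 and 311.5 to 519.2. Trbc2, Myl4 and Smim43 completed the largest rises, at 3.74, 2.69 and 2.60.

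Those that fell with the widest gap were Gpr101, Pappa2, Nos1, Cabp7, Rxrg, Hcn4, Fign, Doc2b, Nmbr, Dgkg, D630023F18Rik and Tmem255a. Rxrg, a retinoid receptor gene (chromosome 1, 167425673 to 167467193, plus strand), ran from 67.6 to 299.1 in dark and from 14.9 to 37.2 in light mice (−2.88, standard error 0.35). Hcn4, a pacemaker channel gene, ran from 151.7 to 230.1 and from 43.9 to 85.4 (−1.64, standard error 0.22). Dgkg, a diacylglycerol kinase gene, had the smallest p at −1.16 (standard error 0.12, adjusted p = 7.91e-07), with 2270 to 3436 and 983.5 to 1405. Nmbr and Pappa2 fell by 2.68 and 3.59.

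Noradrenergic genes were present in a single library. Slc6a2 (noradrenaline transporter) and Dbh (noradrenaline synthesis) had 1164 and 687.0 normalized counts in dark mouse 1 and at most 5.57 and 10.2 in the other PBS mice, so each change rests on 1 mouse. Trh, the thyrotropin-releasing hormone gene, had 234.4, 1094, 6.47, 1637, 526.9 and 16.5 in dark mice 1 to 6 and at most 9.30 in light mice (log2 fold change −6.85, standard error 0.97). Dlk1, an imprinted Notch ligand gene, had 1264, 1158, 484.3, 1817, 626.4 and 8.22 in dark mice 1 to 6 and at most 50.3 in light mice. The groups overlapped through dark mouse 3 alone in Trh and through dark mouse 6 alone in Dlk1, Krt2, Slc9a4, Ano2 and Arhgap36. Dsc3 and Arhgap36 fell by 3.80 and 3.65.

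Among the most abundant genes that were called the changes were small, with 1 exception. Camk2n1, an inhibitor of CaM kinase II, ran from 9071 to 31180 in dark and from 39920 to 67050 in light mice (log2 fold change 1.46, standard error 0.20). Calm3, Kif5a and Snap25 rose by 0.23, 0.49 and 0.38. Spock2, a matrix proteoglycan gene, fell by 0.30 (standard error 0.04) with no overlap, as did Scd2 and Map1b by 0.30 and 0.53. Map2, a dendritic microtubule gene, fell by 0.40, but against dark mice 1 and 6 alone it was higher by 0.10 (adjusted p = 0.502).

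Of the 4611 calls, 3339 held in the same direction in each fit that left out 1 of the 12 mice, 3048 when only the 12 mice were fitted and 2250 against both subsets of dark mice (2 to 5, and 1 and 6). All 21 alternative fits with the same filter on low counts kept 570 calls, 256 higher and 314 lower. These include Arc, Npas4, Egr1, Ier5, Spry2, Arl4d, Per3 and Trem2 among the genes above that rose, and Fibcd1, Dcn, Nos1, Crym, Ntng1, Trh and Dlk1 among those that fell. Fibcd1 is itself among the genes averaged in the hippocampal covariate, so its call in that fit is not an independent check.

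The light effect without drug was set against the light effect in the psilocybin groups, which share no mice with it, to see where the effects differ. The difference was called in 8.75% of the 14464 genes (edgeR interaction contrast), 703 positive and 563 negative. Without dark mouse 6 it was called in 2092 genes. Of the 54 genes named by rule, 40 differed, and in 39 of these the light effect with psilocybin was smaller in size. The named genes were chosen for large effects without drug or for the difference itself, so these counts are a description. Arc rose by 2.83 without drug and by 0.80 with psilocybin (adjusted p = 0.106 for the latter), a difference of 2.03 (standard error 0.41, adjusted p = 0.00554). Mean Arc counts were 1089 ± 333 in dark, 7729 ± 3174 in light, 5902 ± 2511 in psilocybin-dark and 10250 ± 2379 in psilocybin-light mice (SD, n = 6 each).

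The same held for genes that mark tissue. Fibcd1 and Nos1 had 166.0 ± 66.0 and 1031 ± 348 in psilocybin-dark mice (SD, n = 6), near the light groups and not the dark group. The 5 smallest p-values of the difference were those of Mapk4, Bmal1, C130074G19Rik, Etv6 and Slc6a15. Mapk4, an atypical MAP kinase gene, rose by 0.55 without drug and fell by 0.39 with psilocybin, Bmal1 rose by 0.33 and fell by 0.36, and Etv6 rose by 0.80 and fell by 0.47, each call past the threshold. In these 3 genes light had opposite called effects with and without the drug. With the hippocampal marker covariate their rise without drug was not called (Mapk4 0.35, Bmal1 0.12 and Etv6 0.57). Among the listed activity genes the difference was called in 6 of 22 factor genes, 8 of 23 effectors and 6 of 20 later genes. For cytosolic ribosomal protein genes it was called in 2 of 81, and over all genes tested in 8.75%.

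**Figure D4:**
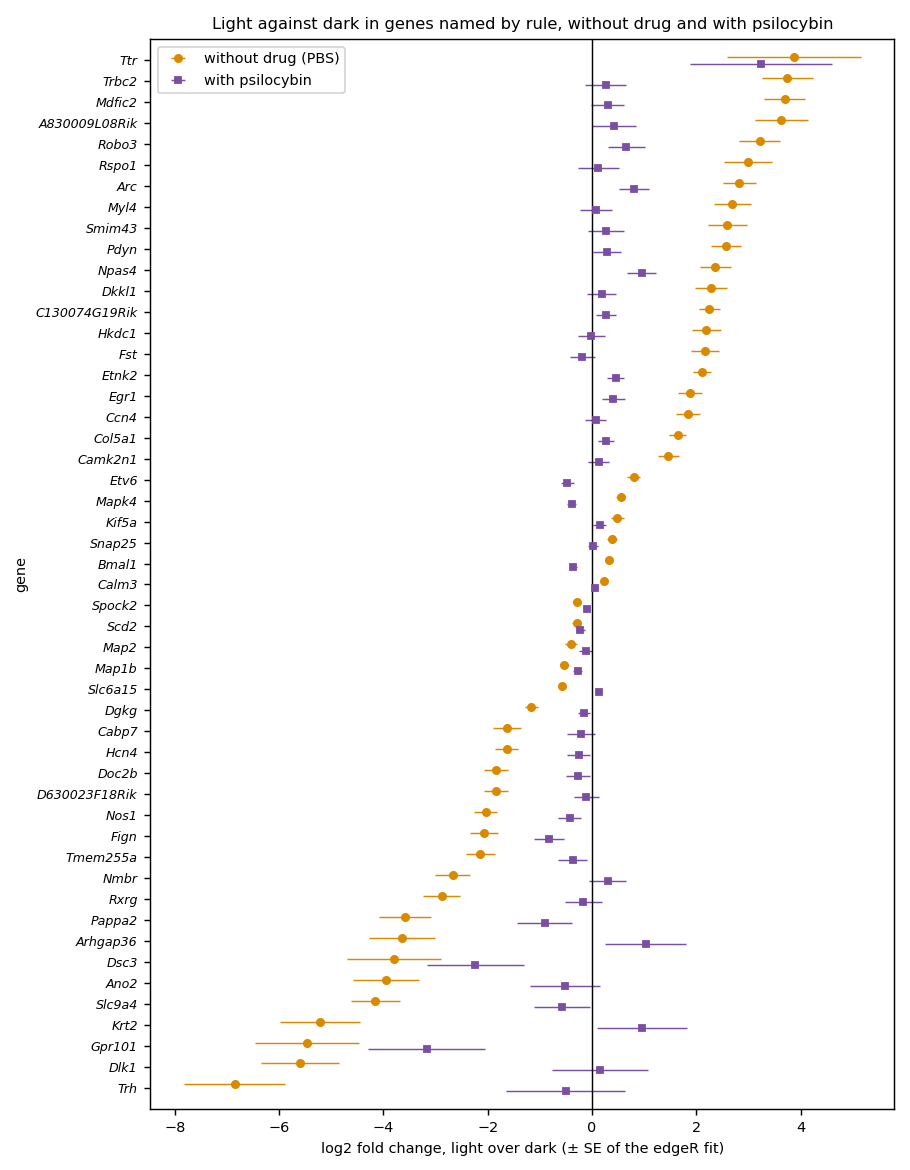
Log2 fold change of light over dark (x axis, ± standard error of the edgeR fit) for the genes named by rule (y axis), without drug (circles) and with psilocybin (squares), 6 mice in each of the 4 groups. Slc6a2 and Dbh, which rest on 1 mouse, are left out, as are genes not reported here. Without drug the genes run from −6.85 (Trh) to 3.87 (Ttr, which rests on light mouse 14) and 3.74 (Trbc2), and with psilocybin most lie closer to 0.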

How the data were processed

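Visual cortex (V1) RNA of 24 mice was sequenced by the authors as polyadenylated RNA. Per the study's methods, reads were trimmed with cutadapt (reads under 30 bases dropped), aligned with STAR (mismatch share 0.04) and counted with htseq-count. The methods name build GRCm39, the submitters' processing notes mm10, and strand handling was not given in the sources used here. The authors deposited raw counts for 55414 genes per mouse. Light exposure followed the headings of the supplementary count table, against the sample labels.

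Genes with at least 30 counts in some mouse (14464) were fitted in all 24 libraries with edgeR 4.0.16 (TMM, quasi-likelihood, Benjamini-Hochberg) in R 4.3.3. The light contrast used the PBS mice. DESeq2 1.42.0, limma 3.58.1 (voom), other filters, covariates and left-out libraries were alternatives. The tests were tested on simulated data. Genes were named by gap (12 per direction), fold (10), abundance (5) and interaction (5), the gap and fold rules needing a mean of 50 normalized counts, and in lists by smallest p or as defining markers. Members and lists were chosen with earlier results of these data known. Some genes are not reported here. Activity genes were also scaled to single excitatory neuron genes of the same library, a scaling chosen after seeing the data whose results are not reported here.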

Additional observations from a re-analysis of the deposited data

Results flagged for a closer look

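The light effect without drug differed from the light effect with psilocybin, by the edgeR interaction contrast at an adjusted p-value under 0.05, in 40 of the 54 named genes. The difference (without drug less with psilocybin, log2 scale) was positive for Trbc2 (3.48), Mdfic2 (3.39), A830009L08Rik (3.21), Rspo1 (2.87), Myl4 (2.61), Robo3 (2.55), Fst (2.35), Smim43 (2.33), Pdyn (2.28), Hkdc1 (2.21), Dkkl1 (2.10), Arc (2.03), C130074G19Rik (1.97), Ccn4 (1.77), Etnk2 (1.65), Egr1 (1.48), Npas4 (1.42), Col5a1 (1.38), Camk2n1 (1.34), Etv6 (1.27), Mapk4 (0.94) and Bmal1 (0.69). It was negative for Trh (−6.34), Krt2 (−6.17), Dlk1 (−5.75), Arhgap36 (−4.67), Slc9a4 (−3.58), Ano2 (−3.43), Nmbr (−2.97), Rxrg (−2.72), Pappa2 (−2.68), Tmem255a (−1.77), D630023F18Rik (−1.73), Nos1 (−1.61), Doc2b (−1.57), Cabp7 (−1.41), Hcn4 (−1.38), Dgkg (−1.01), Slc6a15 (−0.71) and Spock2 (−0.20).

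Among 160 groups of 6 mice screened for a mouse far from the others, 25 had an end value whose gap to its neighbour, as a share of the group's range, was above Dixon's 95% critical value for 6 samples. Chance flags about 1 in 20 groups where values are normally distributed and groups independent, whereas these groups share mice and related genes. Among named genes in dark mice these were A830009L08Rik (0.763), Arhgap36 (0.636), Dbh (0.985), Etnk2 (0.628), Robo3 (0.666), Scd2 (0.857), Slc6a2 (0.995) and Trbc2 (0.922). In light mice they were Arhgap36 (0.735), Krt2 (0.642), Slc6a2 (1), Smim43 (0.803), Tmem255a (0.685) and Ttr (0.981). The Slc6a2 flag in light mice rests on 0.95 normalized counts in light mouse 15, with 0 in the others. For summed list levels in dark mice they were the clock (0.712), ependymal (0.63), hypothalamic (0.736), upper-layer (0.6254) and oligodendrocyte (0.682) lists, and in light mice the cerebellar (0.985), choroid plexus (0.955), claustrum and lateral cortex (0.63), general excitatory (0.661), later and secreted-protein (0.676) and meningeal (0.78) lists.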

How the results depend on the processing

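The count of 4611 genes called became 922 with the hippocampal marker covariate, 3073 with only the 12 PBS mice, 2853 at an adjusted p under 0.01 and 664 when the log2 fold change also had to reach 1 in size. The 2229 higher became 403, 1472, 1396 and 286 in that order, and the 2382 lower became 519 with the covariate, 1457 at 0.01 and 378 with the fold threshold. With no filter on low counts the difference from the psilocybin groups was called in 759 genes (466 higher, 293 lower) in place of 1266. Leaving out 1 mouse gave 3937 to 5010 light calls (1910 to 2486 higher, 2027 to 2524 lower). For the difference it gave 863 to 2092 calls (495 to 1056 higher, 363 to 1036 lower), with the highest counts without dark mouse 6 and, for lower calls, 363 without dark mouse 4, 372 without light mouse 15 and 368 without light mouse 16. Among genes called and reported, signs turned for Slc6a2 (4.30), Dbh (1.56) and Otp (1.05) with the hippocampal covariate and for Map2 (0.10) without dark mice 2 to 5, on the log2 scale. Signs also turned for genes that were not called, such as Fosl2 (0.71) and Nr4a3 (0.37) without dark mice 2 to 5 and Plk2 (−0.017) with the hippocampal covariate. The cause was not tested. The study's methods say that littermates were assigned to groups at random. Which mice were littermates was not given in the sources used here, so no paired analysis was possible. If the sample labels hold in place of the table headings, every sign turns.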
